A study of Arabidopsis thaliana with 18 samples.

Results

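The warmth response of Arabidopsis seedlings was compared between 2 chromatin mutants, as the response of h3.3kd minus the response of elf7-3, each response being 27 °C against 21 °C. All 12 libraries were from whole seedlings harvested 7 days old and raised in short days, with 3 libraries each of h3.3kd at 21 °C, h3.3kd at 27 °C, elf7-3 at 21 °C and elf7-3 at 27 °C. They belong to a series of 18 libraries, whose wild-type Col libraries did not enter the fit. The labels give the genotype of the first line as h3.3kd-1 and of the second as elf7-3, and do not say which construct lowers H3.3 or how many independent lines each name covers. Genes were taken when they reached 1 TPM (a transcript abundance scaled by gene length to a fixed total per library) in at least 3 of the 12 libraries and lay in the nuclear genome, which left 19649 of the 27655 genes in the table. The question addressed was which genes changed differently with warmth in a line named for lowered histone H3.3 and in a mutant of the Paf1 complex.

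Histone H3.3 is a variant of histone H3 that is placed into nucleosomes outside DNA replication, mostly over transcribed genes. ELF7 is the Arabidopsis counterpart of yeast Paf1, a subunit of the complex that travels with RNA polymerase II and aids elongation and the histone marks that go with it. In moderate warmth Arabidopsis seedlings elongate, a growth response known as thermomorphogenesis, in which PIF transcription factors raise auxin synthesis, and in which small heat shock protein genes and clock genes also move. The 2 genotypes target proteins with different roles in transcription through chromatin, and the series title places H3.3 deposition in this growth response. The libraries measure transcripts, and neither H3.3 protein nor Paf1 complex activity was measured in them.

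Replicates of a group lay together and the 4 groups lay apart on the first 2 principal components, which held 48.7% and 29.2% of the variance. Between 18475 and 19115 nuclear genes reached 1 TPM in a library. The h3.3kd library at 27 °C with replicate number 1 stood apart in its organelle share. Chloroplast and mitochondrial genes made up 3.66% of its TPM, against 0.128% to 0.343% in the other 11 libraries, and results in which it stood out are given with and without it. The labels do not say that replicates were separate cultures, and p-values therefore reflect the spread among these libraries alone, which may be technical. In whole seedlings, fewer cells of a type and less RNA per cell cannot be told apart.

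The genes that name the lines came first. HTR4, 1 of the genes for H3.3 (AT4G40030), measured 45.5, 44.7 and 43.8 TPM in h3.3kd at 21 °C and 51.3, 52.9 and 58.5 at 27 °C. HTR4 in elf7-3 was at 297, 279.7 and 291 TPM in the cool libraries and 225, 232 and 239.5 in the warm ones. Every h3.3kd library was far below every elf7-3 library, and warmth moved the gene in opposite directions, up in h3.3kd and down in elf7-3, with a difference of responses of 0.59 ± 0.077 (adjusted p = 0.00031) on the log2(TPM + 1) scale. Differences of responses below are on that scale, as value ± standard error from limma with 3 libraries per group (n = 3), and adjusted p-values are limma's over all 19649 genes. HTR8 (AT5G10980), another H3.3 gene, measured 18.5, 20.7 and 17.3 TPM in h3.3kd at 21 °C and 18.3, 14.7 and 19.2 at 27 °C. HTR8 in elf7-3 was at 385, 399 and 415 TPM in the cool libraries and 248, 256 and 240.2 in the warm ones. Its levels in h3.3kd overlapped between temperatures while both elf7-3 groups stood apart, and the difference was 0.57 ± 0.12 (adjusted p = 0.00928). HTR5 (AT4G40040) had means of 269.6 ± 9.67 and 265 ± 6.28 TPM (SD, n = 3) in h3.3kd and 789.5 ± 51.1 and 646 ± 18.8 in elf7-3, at 21 and 27 °C. Its difference of 0.26 ± 0.078 (adjusted p = 0.047) lost its call when any library other than h3.3kd at 21 °C replicate 2 or elf7-3 at 21 °C replicate 1 was left out, with adjusted p up to 0.118. The 3 H3.3 genes encode the same or nearly the same protein, and the counting may have split reads among them. ELF7 (AT1G79730) measured 28.2, 29.7 and 26.4 TPM in h3.3kd at 21 °C and 38, 33.1 and 37.7 at 27 °C. ELF7 in elf7-3 was at 9.33, 9.3 and 8.5 TPM in the cool libraries and 12.5, 13.4 and 13.2 in the warm ones. It was lower in every elf7-3 library than in every h3.3kd library, and it rose with warmth in both lines, with a difference of responses of -0.13 ± 0.11 that was not called (adjusted p = 0.53). ELF7 transcripts were detected in every elf7-3 library.

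Of the 19649 genes, 1896 (9.65%) differed in their response at an adjusted p under 0.05. The response was higher in h3.3kd for 787 genes (4.01%) and lower for 1109 (5.64%), and 223 and 243 of these differed more than 2-fold. More genes were called for warmth alone, 8608 (43.8%) in h3.3kd and 9201 (46.8%) in elf7-3. The difference of responses had a larger standard error (median over genes 0.149, against 0.105 for each response). A change of the same size is therefore called less often in it. In h3.3kd 4867 (24.8%) rose and 3741 (19%) fell, and in elf7-3 5664 (28.8%) rose and 3537 (18%) fell. Across genes, which are not independent replicates, the responses of the lines had a Pearson correlation of 0.648, and they share no library. Most of the genes in which the lines differed had moved in only 1 line or in the same direction in both. Among the 787 with a higher response in h3.3kd, 270 rose in h3.3kd and were not called in elf7-3, 225 fell in elf7-3 and were not called in h3.3kd, 145 rose in both and 77 fell in both. Genes that rose in h3.3kd and fell in elf7-3 numbered 67. Among the 1109 with a lower response, 415 rose in elf7-3 and were not called in h3.3kd, 298 fell in h3.3kd and were not called in elf7-3, 140 rose in both, 117 fell in both, and 135 fell in h3.3kd and rose in elf7-3. A call in 1 line and not in the other is a description of these classes, and the difference itself is what was tested. When the library with the high organelle share was left out, 801 genes were higher and 857 lower. Without h3.3kd at 21 °C replicate 1, 517 were higher and 767 lower, the lowest counts of any left-out library.

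**Figure D1:**
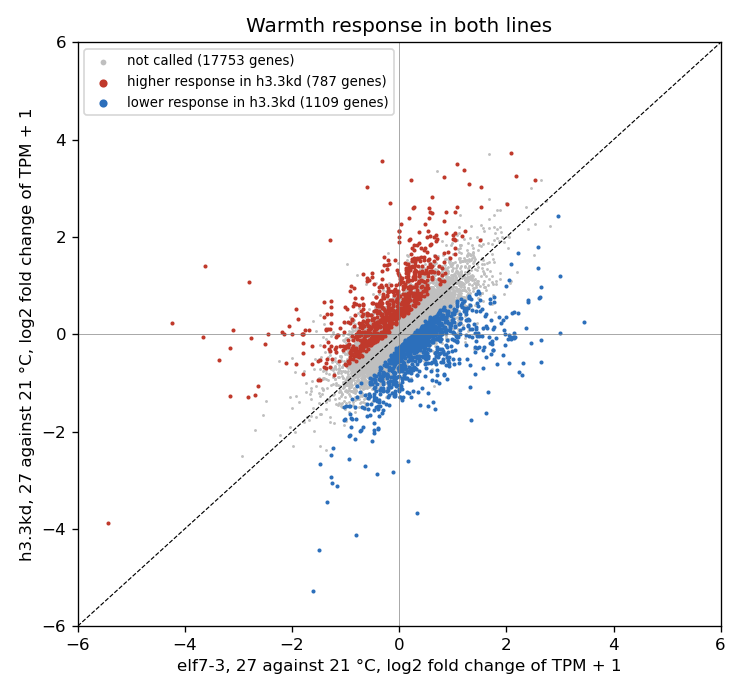
Each point is 1 of 19649 genes, with its log2 fold change of TPM + 1 at 27 against 21 °C in elf7-3 on the horizontal axis and in h3.3kd on the vertical axis; red points are the 787 genes with a higher response in h3.3kd and blue points the 1109 with a lower one, by limma. Most points follow the dashed line of equal response, and called genes lie to either side of it, many near 1 of the axes.

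Genes were then read by group, from 27 lists of pathway and marker genes. The median difference over all genes was -0.03. The list medians furthest above it were those of salicylic acid immunity (0.82), auxin response (0.66), the targeted genes (0.42) and heat shock (0.37). The targeted genes are the 4 that name the lines, HTR4, HTR5, HTR8 and ELF7, and are not a pathway. Furthest below the median of all genes were floral organ identity (-1.54, from 2 members), cold response (-0.80), cytokinin response (-0.70) and sugar starvation (-0.52). A list's counts are read beside the shares of all genes called, 4.01% higher and 5.64% lower.

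**Figure D2:**
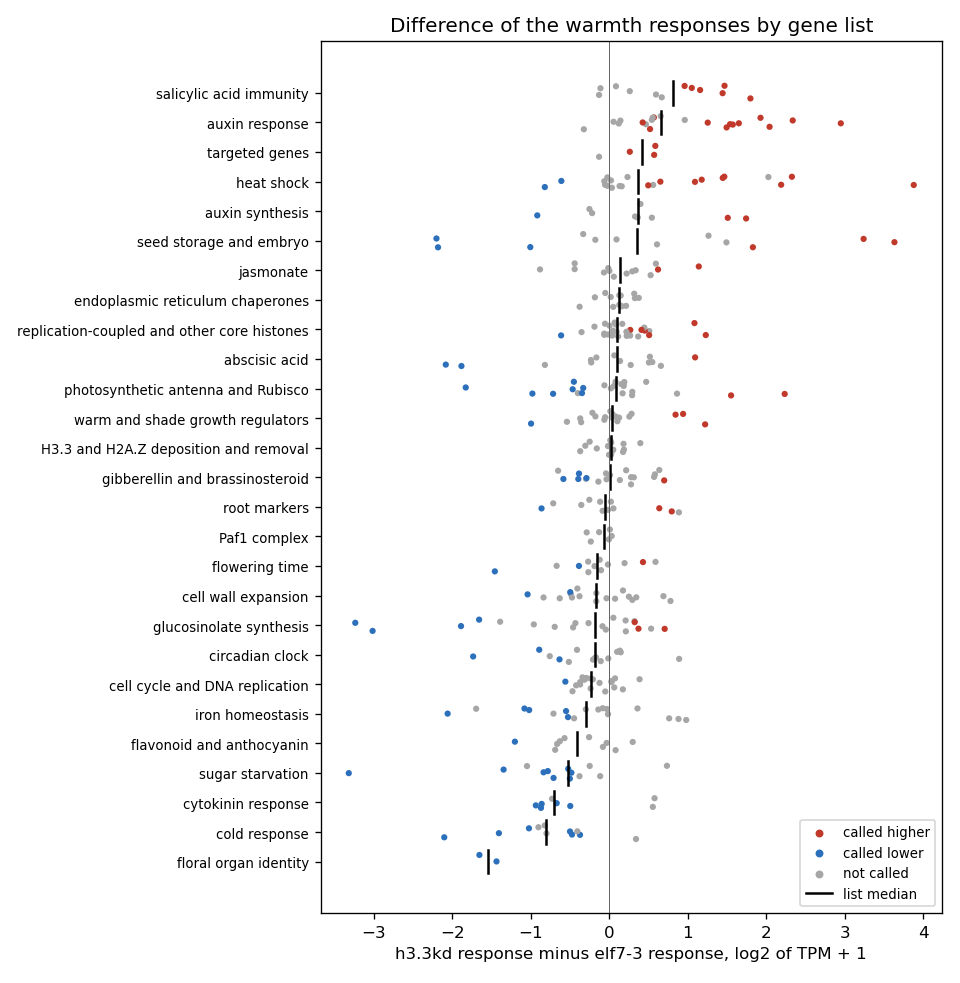
Each point is 1 tested gene of a list, placed on the horizontal axis by its difference of warmth responses (h3.3kd minus elf7-3, log2 of TPM + 1); red and blue points were called higher and lower by limma, grey points were not called, and black bars are list medians. Auxin response genes lie almost all to the right of 0 and cold response genes almost all to the left, while the seed and glucosinolate lists hold members far out on either side or on the left.

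Auxin response genes rose more in h3.3kd. Of 21 tested members, 20 had a positive difference, 12 were called higher and 0 were called lower by limma, with 14 higher and 0 lower at an unadjusted p under 0.05. The median response of the list was 1.48 in h3.3kd and 0.58 in elf7-3. SAUR22 (AT5G18050), a small auxin-induced gene of a family that drives cell expansion, measured 1.4, 2.86 and 3.21 TPM in h3.3kd at 21 °C and 24.1, 33.2 and 31.9 at 27 °C. SAUR22 in elf7-3 was at 1.12, 1.06 and 2.54 TPM in the cool libraries and 1.23, 2.71 and 1.94 in the warm ones. Its 3 warm h3.3kd libraries stood above the other 9, and the 2 elf7-3 groups overlapped, which gave a difference of 2.95 ± 0.36 (adjusted p = 0.000165). SAUR23 (AT5G18060), its neighbour in the same family, had a difference of 2.34 ± 0.27 (adjusted p = 0.000108), from group means of 2.79 ± 0.564 and 22 ± 1.78 TPM in h3.3kd and 1.68 ± 0.212 and 2.34 ± 1.13 in elf7-3. SAUR20, SAUR21 and SAUR24, called as well and named after their values were seen, had differences of 1.496, 1.65 and 1.54, and reads may be shared among these near-identical genes. GH3.3 (AT2G23170), whose enzyme joins auxin to amino acids, measured 3.98, 3.94 and 2.66 TPM in h3.3kd at 21 °C and 22, 32.1 and 25 at 27 °C. GH3.3 in elf7-3 was at 7.63, 6.27 and 6.02 TPM in the cool libraries and 8.08, 13.2 and 9.68 in the warm ones. It rose in both lines and by more in h3.3kd, with a difference of 2.04 ± 0.25 (adjusted p = 0.000185). Also called, and likewise named after their values were seen, were GH3.5 (1.58) and the Aux/IAA repressor genes IAA29 (1.93), IAA1 (1.256), IAA14 (0.57), IAA17 (0.52) and IAA4 (0.43).

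Upstream of these, 2 of 9 tested auxin synthesis genes were called higher and 1 lower. YUC3 (AT1G04610) encodes a flavin monooxygenase of the last step to auxin and measured 2.37, 1.98 and 2.54 TPM in h3.3kd at 21 °C and 11.6, 14.7 and 9.39 at 27 °C. YUC3 in elf7-3 was at 2.96, 2.7 and 3.01 TPM in the cool libraries and 3.73, 3.73 and 3.03 in the warm ones. Its warm h3.3kd libraries again stood above all others, and the difference was 1.74 ± 0.22 (adjusted p = 0.000173). YUC8 (AT4G28720), the family member best known for its induction by warmth through PIF4, had means of 3.14 ± 0.802 and 13.9 ± 3.41 TPM in h3.3kd and 4.97 ± 3 and 6.02 ± 1.3 in elf7-3, a difference of 1.51 ± 0.39 (adjusted p = 0.026). The YUC8 call was lost without h3.3kd at 21 °C replicate 3 (1.36), h3.3kd at 27 °C replicate 2 (1.35) or elf7-3 at 27 °C replicate 3 (1.37), with adjusted p of 0.0594 to 0.0669. TAA1 (AT1G70560), the aminotransferase gene of the step before, moved the other way. It fell in both lines and by more in h3.3kd, from 13.8 ± 1.36 to 4.42 ± 0.279 TPM against 12.1 ± 1.14 to 8.13 ± 1.16 in elf7-3, a difference of -0.92 ± 0.16 (adjusted p = 0.00305).

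Among 19 tested regulators of warm and shade growth, 3 were called higher and 1 lower, with a list median of 0.03. HAT2 (AT5G47370), a homeobox gene induced by auxin, measured 24.3, 26.7 and 18.8 TPM in h3.3kd at 21 °C and 80.2, 102 and 87.8 at 27 °C. HAT2 in elf7-3 was at 30.4, 23.9 and 25.8 TPM in the cool libraries and 42, 48.9 and 40.2 in the warm ones. The groups at 27 °C did not overlap with those at 21 °C in either line, and the difference was 1.22 ± 0.18 (adjusted p = 0.000716). ATHB2 (AT4G16780), a related gene of the shade response, rose from 11 ± 1.76 to 27 ± 0.356 TPM in h3.3kd and was not called in elf7-3 (6.29 ± 0.331 and 8 ± 1.63), a difference of 0.94 ± 0.18 (adjusted p = 0.00491). The third was PRE6 (0.85), named after its value was seen. PIF5 (AT3G59060), a transcription factor gene of the same pathway, went against these. It measured 13, 14.2 and 11.3 TPM in h3.3kd at 21 °C and 21.6, 22.7 and 23 at 27 °C. PIF5 in elf7-3 was at 9.91, 7.88 and 9.24 TPM in the cool libraries and 36.9, 31.4 and 30.4 in the warm ones. It rose in both lines and by more in elf7-3, a difference of -0.995 ± 0.15 (adjusted p = 0.000765). PIF4, the main PIF of thermomorphogenesis, had a difference of -0.37 ± 0.15 that was not called (adjusted p = 0.149).

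**Figure D3:**
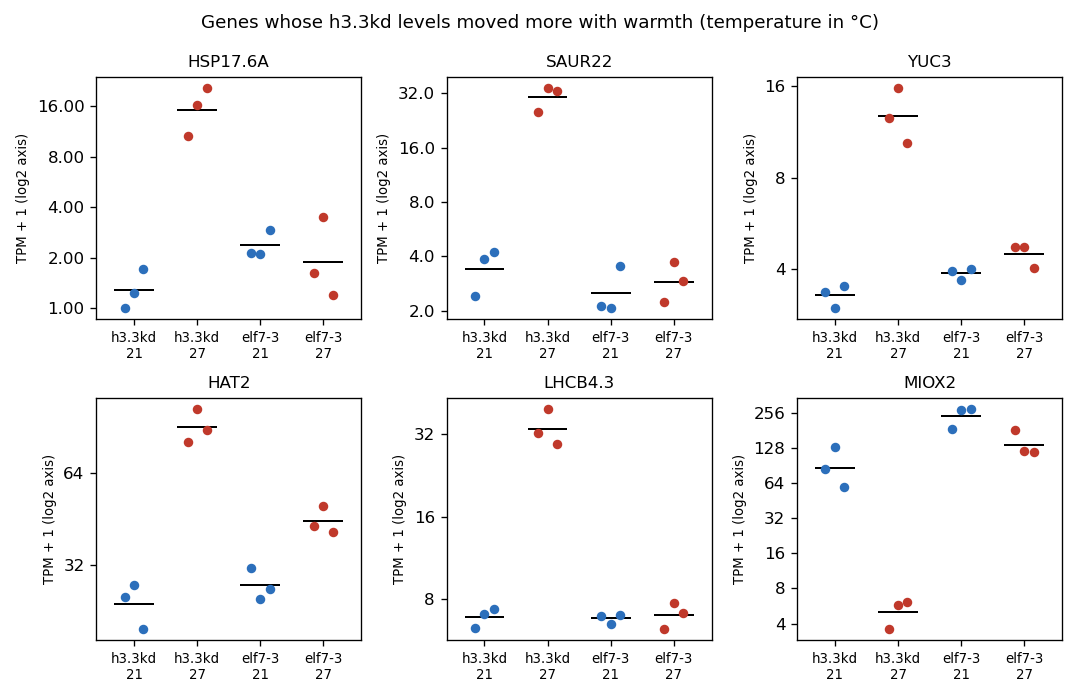
TPM + 1 on a log2 axis for 6 genes in the 12 libraries, with 3 libraries (points) and their mean on the log scale (bar) per line and temperature, blue for 21 °C and red for 27 °C. HSP17.6A, SAUR22, YUC3, HAT2 and LHCB4.3 have their 3 warm h3.3kd points above the other 9, and MIOX2 has them below the other 9.

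Some small heat shock protein genes, a grouping made after the values were seen, also rose more in h3.3kd, 5 of the 9 tested, with 1 called lower. These proteins are chaperones that bind unfolding proteins, and their genes are turned on by heat shock factors. Of 22 tested heat shock genes, 9 were called higher and 2 lower, and the median response was 1.85 in h3.3kd and 0.64 in elf7-3. HSP17.6A (AT5G12030), a cytosolic small heat shock protein gene, measured 0, 0.242 and 0.726 TPM in h3.3kd at 21 °C and 9.63, 15.2 and 19.4 at 27 °C. HSP17.6A in elf7-3 was at 1.14, 1.12 and 1.93 TPM in the cool libraries and 0.626, 2.5 and 0.205 in the warm ones. The warm h3.3kd libraries were above all others, and elf7-3 overlapped between temperatures, which gave a difference of 3.88 ± 0.49 (adjusted p = 0.000202). HSP17.6II (AT5G12020) was listed at 0 in the 3 h3.3kd libraries at 21 °C and at 2.92, 4.16 and 5.99 TPM at 27 °C, against 0.191, 0.448 and 0.43 and then 0.417, 0.835 and 0.41 in elf7-3, with a fitted difference of 2.19 ± 0.30 (adjusted p = 0.000454). HSP17.6C (AT1G53540) had 4, 11.1 and 11.1 TPM in warm h3.3kd, where replicate 1 was the lowest, and at most 2.45 TPM in any other library, a difference of 2.33 ± 0.45 (adjusted p = 0.00513).

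Named after their values were seen, HSP23.6 (1.47), HSP17.8 (1.45), the heat shock factor genes HSFA2 (1.18), HSFB2A (0.65) and HSFB1 (0.50), and MBF1C (1.09), a co-activator gene of heat tolerance, made up the other calls on that side. Those on the lower side were HSP18.2 (-0.82) and DREB2A (-0.61), a drought and heat factor gene. The small heat shock protein genes HSP17.4 (2.03, adjusted p = 0.0606), HSP23.5 (0.23, adjusted p = 0.654) and HSP15.7 (0.16, adjusted p = 0.867) were not called. HSP101 (0.023 ± 0.21, adjusted p = 0.961) and HSP90.1 (0.035 ± 0.17, adjusted p = 0.931) rose in both lines and were not called different. The count of 9 fell to 5 without h3.3kd at 21 °C replicate 1, h3.3kd at 27 °C replicate 2, elf7-3 at 21 °C replicate 3 or elf7-3 at 27 °C replicate 2, and the count of 2 fell to 0 or 1 with any library left out. Most of these genes were low, and with a filter at 5 TPM 5 were called higher.

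The promoters of these genes were searched for 1 form of the heat shock element, the letters GAANNTTC. The search covered the 250 bases before and the 50 after the annotated start (RefSeq annotation of TAIR10.1). This form reads the same on both strands, and other arrangements of the element were not searched. It was found in 8 of 22 heat shock genes (36.4%) and in 11.1% of the 19638 promoters read, in 11.6% of those called higher and 9.03% of those called lower. Of the 9 heat shock genes called higher, 3 held these letters (HSP17.6C, HSP23.6 and HSFA2). HSP17.6A, HSP17.6II, HSP17.8, HSFB1, HSFB2A and MBF1C had no match to them. The 250 bases before the start are shown for HSP17.6C and HSFA2, each 5′ to 3′ on the plus strand with matches in capitals. HSP17.6C had the largest difference of the 3, and HSFA2 is the heat shock factor gene with the largest difference. HSP17.6C lies at chr1:19980049-19980298 and has 1 match, and HSFA2 at chr2:11135374-11135623 with 2 matches shown and 1 more in the 50 bases after the start. A match is a string of letters and not a measured binding site.
HSP17.6C: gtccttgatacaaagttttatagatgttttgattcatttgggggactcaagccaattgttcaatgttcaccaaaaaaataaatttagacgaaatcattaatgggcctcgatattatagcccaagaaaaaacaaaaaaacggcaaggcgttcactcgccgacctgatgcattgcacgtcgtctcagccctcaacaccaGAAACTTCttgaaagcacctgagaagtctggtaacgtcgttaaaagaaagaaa
HSFA2: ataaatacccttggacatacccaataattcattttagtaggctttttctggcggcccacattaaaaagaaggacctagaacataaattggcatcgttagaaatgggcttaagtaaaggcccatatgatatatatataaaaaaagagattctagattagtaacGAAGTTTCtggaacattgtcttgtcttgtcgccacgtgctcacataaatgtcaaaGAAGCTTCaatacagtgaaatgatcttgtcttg

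Of 23 antenna and Rubisco genes 2 were called higher and 7 lower, and the list median was 0.08. Besides LHCB1.4, the calls on the lower side were LHCB1.5 (-0.98) and LHCB3 (-0.71) of photosystem II and the photosystem I antenna genes LHCA1 (-0.35), LHCA2 (-0.33), LHCA3 (-0.47) and LHCA4 (-0.45), named after their values were seen. LHCB4.3 (AT2G40100), a minor antenna protein gene of photosystem II, measured 5.32, 6.06 and 6.41 TPM in h3.3kd at 21 °C and 31.2, 38.4 and 28.5 at 27 °C. LHCB4.3 in elf7-3 was at 5.98, 5.5 and 6.01 TPM in the cool libraries and 5.22, 6.75 and 6.14 in the warm ones. It rose in h3.3kd with no overlap and overlapped between temperatures in elf7-3, a difference of 2.24 ± 0.17 (adjusted p = 2.63e-06). LHCB1.4 (AT2G34430), a gene of the major antenna, had 1030, 937 and 1130 TPM in h3.3kd at 21 °C and 365, 394 and 372 at 27 °C. In elf7-3 it had 1998, 2288 and 2062 TPM and then 2833, 2858 and 2564. It fell in h3.3kd and rose in elf7-3, with no overlap between any of the 4 groups, a difference of -1.83 ± 0.11 (adjusted p = 3.62e-07). LHCB1.1 (AT1G29920), a close copy, fell in both lines. It went from 749 ± 78.6 to 49.7 ± 3.85 TPM in h3.3kd and from 1655 ± 98.1 to 37.2 ± 2.5 in elf7-3, where it fell further, so that its difference was 1.55 ± 0.11 (adjusted p = 1.44e-06). Reads may be shared among LHCB1 genes. The summed TPM of the list, a leaf signal, was 94090 to 107200 in h3.3kd at 21 °C, 80960 to 89160 at 27 °C, 78990 to 86930 in elf7-3 at 21 °C and 65860 to 70530 at 27 °C, lower in the warmth in both lines. Its part in other results was not tested.

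Genes of the cold response fell more in h3.3kd. Of 11 tested members 6 were called lower and 0 higher by limma (6 and 1 at an unadjusted p under 0.05), 10 had a negative difference, and the median response was -1.34 in h3.3kd and -0.36 in elf7-3. RD29A (AT5G52310), a desiccation and cold gene under CBF control, measured 35.3, 28.9 and 52.9 TPM in h3.3kd at 21 °C and 13.4, 12.9 and 16.9 at 27 °C. RD29A in elf7-3 was at 6.77, 7.69 and 8.35 TPM in the cool libraries and 8.79, 5.65 and 10 in the warm ones. Its cool h3.3kd libraries stood above all others and elf7-3 overlapped between temperatures, a difference of -1.41 ± 0.29 (adjusted p = 0.00755). COR413-PM1 (AT2G15970), for a membrane protein of cold acclimation, fell from 261 ± 38.2 to 138 ± 8.81 TPM in h3.3kd against 153 ± 12.5 and 166 ± 5.86 in elf7-3, a difference of -1.02 ± 0.13 (adjusted p = 0.000185). COR15A (AT2G42540), for a chloroplast protein that protects against freezing, had 18.3, 7.79 and 34.2 TPM in cool h3.3kd, a wide spread, and 0.273, 0.554 and 1.35 in the warmth, with a difference of -2.10 ± 0.51 (adjusted p = 0.0199) that was not called at a pseudocount of 0.1 (adjusted p = 0.0639). The other called members were COR27 (-0.50), COR28 (-0.47) and COR47 (-0.37), named after their values were seen. CBF1, CBF2 and CBF3, which activate cold response genes such as RD29A, stayed under 1 TPM in every library and were not tested.

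Type-A response regulators, which cytokinin induces and which damp its signal, fell more in h3.3kd. Of 8 tested, 5 were called lower and 0 higher by limma (6 and 1 at an unadjusted p under 0.05), and the median response was -1.13 in h3.3kd and -0.43 in elf7-3. ARR4 (AT1G10470) measured 99.3, 89.7 and 110.1 TPM in h3.3kd at 21 °C and 39.6, 45.7 and 53.7 at 27 °C. ARR4 in elf7-3 was at 97.3, 68.9 and 72.8 TPM in the cool libraries and 58.5, 67.5 and 88.1 in the warm ones. It fell in h3.3kd with no overlap and overlapped between temperatures in elf7-3, a difference of -0.93 ± 0.21 (adjusted p = 0.0147). ARR6 (-0.87 ± 0.23, adjusted p = 0.0262) and ARR7 (-0.86 ± 0.23, adjusted p = 0.0313) fell in both lines and by more in h3.3kd. ARR5 (-0.67) and ARR9 (-0.50), named after their values were seen, were also called. These calls were near the threshold: with any 1 of the 12 libraries left out, 2 or 3 members were called lower. ARR8 was at 133, 29.4 and 32.4 TPM in warm h3.3kd, high in the 1 library with the high organelle share, and was not called (0.56 ± 0.53, adjusted p = 0.567), nor without that library (-0.14 ± 0.11, adjusted p = 0.487).

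For brassinosteroids, steroid hormones of growth, 1 of 19 gibberellin and brassinosteroid genes was called higher and 4 lower, with a list median of 0.01. DWF4 (AT3G50660), the rate-setting enzyme of brassinosteroid synthesis, fell from 29.1 ± 1.97 to 21.5 ± 0.743 TPM in h3.3kd and was at 40 ± 0.776 and 44.9 ± 2.67 in elf7-3, a difference of -0.58 ± 0.095 (adjusted p = 0.00157). CPD (AT5G05690), an enzyme gene of the same pathway, rose in both lines and by more in elf7-3, a difference of -0.39 ± 0.067 (adjusted p = 0.00214). BAS1 (AT2G26710), whose enzyme inactivates brassinosteroids, rose more in h3.3kd, with a difference of 0.70 ± 0.17 (adjusted p = 0.0166). BZR1 (-0.38) and BES1 (-0.29), transcription factor genes of the pathway named after their values were seen, were the other calls on the lower side. The count of 4 was 2 without h3.3kd at 21 °C replicate 2, elf7-3 at 21 °C replicate 1 or elf7-3 at 27 °C replicate 1, and the count of 1 was 2 without h3.3kd at 27 °C replicate 2 or elf7-3 at 27 °C replicate 3. Of 18 cell wall expansion genes 2 were called lower and 0 higher by limma (5 and 3 at an unadjusted p under 0.05). The count on the lower side was 4 without h3.3kd at 21 °C replicate 3 or elf7-3 at 27 °C replicate 3, and 1 member was called higher without either of these, h3.3kd at 27 °C replicate 3 or elf7-3 at 21 °C replicate 3. XTH24 (AT4G30270), a gene for a wall-loosening xyloglucan enzyme, measured 166, 215 and 133 TPM in h3.3kd at 21 °C and 235, 219 and 269 at 27 °C. XTH24 in elf7-3 was at 264, 304 and 281 TPM in the cool libraries and 1033, 716 and 774 in the warm ones. It rose in both lines, by more in elf7-3, a difference of -1.04 ± 0.22 (adjusted p = 0.0079). XTH4 (AT2G06850) had -0.50 ± 0.14 (adjusted p = 0.0448) and lost its call without 8 of the 12 libraries (adjusted p up to 0.106), all but h3.3kd at 21 °C replicate 3, h3.3kd at 27 °C replicate 1, elf7-3 at 21 °C replicate 2 and elf7-3 at 27 °C replicate 3.

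Of 13 sugar starvation genes, 8 were called lower and 0 higher by limma (10 and 0 at an unadjusted p under 0.05), and the median response was -0.32 in h3.3kd and 0.15 in elf7-3. MIOX2 (AT2G19800), a myo-inositol oxygenase gene, measured 83.2, 131 and 58.6 TPM in h3.3kd at 21 °C and 2.56, 4.73 and 5.12 at 27 °C. MIOX2 in elf7-3 was at 186, 270.3 and 276 TPM in the cool libraries and 181, 119 and 119 in the warm ones. The warm h3.3kd libraries were at most 5.12 TPM and the other 9 at least 58.6 TPM, and the difference was -3.32 ± 0.38 (adjusted p = 8.79e-05). ASN1 (AT3G47340), the dark-induced asparagine synthetase gene, had -1.35 ± 0.36 (adjusted p = 0.0318), and DIN10 (AT5G20250), a dark-induced raffinose-metabolism gene, had -0.84 ± 0.23 (adjusted p = 0.0373). Both rose in elf7-3 and were not called in h3.3kd, and both lost their calls without any 1 of 7 libraries (h3.3kd at 21 °C replicates 1 and 2, h3.3kd at 27 °C replicates 2 and 3, elf7-3 at 21 °C replicate 1, elf7-3 at 27 °C replicates 1 and 3), where 5 list members were called. The trehalose-phosphate synthase-like genes TPS11 (-0.78), TPS10 (-0.50) and TPS9 (-0.48), BGAL4 (-0.71) and AKINBETA1 (-0.52), named after their values were seen, made up the rest.

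The largest negative differences outside the lists included genes that almost vanished in warm h3.3kd. AT4G22490, for a protein of the lipid-transfer family, measured 34.6, 47.4 and 39.2 TPM in h3.3kd at 21 °C and 1.97, 2.9 and 1.86 at 27 °C. AT4G22490 in elf7-3 was at 67.7, 54.4 and 49.5 TPM in the cool libraries and 61.7, 66.8 and 87.6 in the warm ones. The 3 warm h3.3kd libraries were low and the other 9 between 34.6 and 87.6 TPM, a difference of -4.00 ± 0.22 (adjusted p = 1.96e-07). AT3G05727, annotated as a pollen coat protein-like gene, measured 55.7, 80.3 and 58.3 TPM in h3.3kd at 21 °C and 0.869, 0.883 and 0.307 at 27 °C. AT3G05727 in elf7-3 was at 273, 201 and 199.7 TPM in the cool libraries and 59.2, 75.7 and 84.8 in the warm ones. It fell in both lines with a difference of -3.68 ± 0.25 (adjusted p = 9.69e-07). AT2G05510, for a glycine-rich protein, went from 54 ± 1.7 to 1.57 ± 0.575 TPM in h3.3kd and from 54 ± 12 to 18.7 ± 5.08 in elf7-3, a difference of -2.95 ± 0.27 (adjusted p = 1.32e-05).

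Several of the largest negative differences were in single genes of seeds and of the response to abscisic acid, the hormone of dormancy and drought, that rose in elf7-3. The lists as a whole did not lie on that side: the median difference was 0.10 for abscisic acid, where 8 of 14 were positive, and 0.35 for seed storage and embryo genes. TIP3;1 (AT1G73190), the aquaporin of seed storage vacuoles, measured 26.9, 24.3 and 29 TPM in h3.3kd at 21 °C and 18.4, 15.72 and 19 at 27 °C. TIP3;1 in elf7-3 was at 4.11, 2.99 and 2.18 TPM in the cool libraries and 29, 19.9 and 24.9 in the warm ones. It was low in the 3 cool elf7-3 libraries alone, and it rose in elf7-3 and fell in h3.3kd, a difference of -3.22 ± 0.23 (adjusted p = 1.21e-06). AT1G04560, for an AWPM-19-like membrane protein, measured 82.7, 101 and 87.1 TPM in h3.3kd at 21 °C and 113, 88.7 and 125 at 27 °C. AT1G04560 in elf7-3 was at 6.94, 5.32 and 5.28 TPM in the cool libraries and 82.8, 61.3 and 77.7 in the warm ones. Again 3 libraries were low and 9 were between 61.3 and 125 TPM, a difference of -3.19 ± 0.19 (adjusted p = 3.62e-07). ECP63 (AT2G36640), a late embryogenesis abundant protein gene, measured 68.7, 60 and 74.2 TPM in h3.3kd at 21 °C and 66.9, 60.1 and 80.9 at 27 °C. ECP63 in elf7-3 was at 6.19, 4.96 and 4.13 TPM in the cool libraries and 58, 40.5 and 46 in the warm ones. The difference of responses was -2.98 ± 0.21 (adjusted p = 1.07e-06). In all 3 genes the warm elf7-3 group lay closer to h3.3kd than the cool one, and in ECP63 it stayed below every h3.3kd library.

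RAB18 (AT5G66400), a dehydrin gene induced by abscisic acid, measured 247, 265 and 274 TPM in h3.3kd at 21 °C and 260.4, 225 and 289 at 27 °C. RAB18 in elf7-3 was at 68.8, 67 and 67.6 TPM in the cool libraries and 328, 245 and 289 in the warm ones. RD29B (AT5G52300), a desiccation gene of the same response, had 146 ± 5.33 and 140.0 ± 24 TPM in h3.3kd and 31.6 ± 1.46 and 114 ± 16.4 in elf7-3. Their differences were -2.08 ± 0.14 (adjusted p = 7.54e-07) and -1.88 ± 0.15 (adjusted p = 4.24e-06), and in both the cool elf7-3 group was the low one. OLEO2 (AT5G40420), an oil body protein gene, was at 5.7 to 11.7 TPM in 9 libraries and at 33.2, 25.9 and 30.9 in warm elf7-3, a difference of -2.20 ± 0.25 (adjusted p = 9.44e-05). AT2G28490, for a cupin, fell in h3.3kd and rose in elf7-3 (-3.14 ± 0.16 (adjusted p = 1.65e-07)), as did AT1G47980, annotated as desiccation-like (-3.11 ± 0.22 (adjusted p = 1.21e-06)). M17 (AT2G41260), a late embryogenesis abundant protein gene, had 12, 17.3 and 14 TPM in cool elf7-3 and 83.2, 71.7 and 69.9 in warm elf7-3, against at most 3.25 in any h3.3kd library, a difference of -2.90 ± 0.44 (adjusted p = 0.000959). Of the 14 abscisic acid genes 2 were called lower and 1 higher, CYP707A3 (AT5G45340), whose enzyme breaks the hormone down (1.09 ± 0.29 (adjusted p = 0.0273)). That last call was lost without any 1 of 7 libraries (h3.3kd at 21 °C replicates 1 and 2, h3.3kd at 27 °C replicate 2, elf7-3 at 21 °C replicates 2 and 3, elf7-3 at 27 °C replicates 1 and 2), with adjusted p of 0.0506 to 0.0705. The signalling genes ABI1 (0.14), ABI2 (0.27) and ABF3 (0.51) were not called.

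The ABRE-like element, the letters ACGTGNC on either strand, which bZIP factors of abscisic acid signalling bind, was in 8 of 14 promoters of the abscisic acid list (57.1%) and in 11.8% of all promoters read, in 12.2% of those called higher and 14.8% of those called lower. It can overlap with the G-box, CACGTG, which was in 8.96% of all promoters, 7.24% of those called higher and 11.1% of those called lower. The ABRE-like letters were also in 9 of 13 endoplasmic reticulum chaperone promoters (69.2%), a list with 0 members called. The 250 bases before the start of RD29B (chr5:21236771-21237020, plus strand) and AT1G04560 (chr1:1244697-1244946, plus strand) of TAIR10.1 are shown, with matches in capitals. Both genes were low in cool elf7-3 alone, and they were picked because each promoter holds 3 matches. In AT1G04560, 2 of the 3 overlap in 1 run. Of the other genes described above as low in cool elf7-3, ECP63 had 2 matches, RAB18 had 1 and TIP3;1 had 0.
RD29B: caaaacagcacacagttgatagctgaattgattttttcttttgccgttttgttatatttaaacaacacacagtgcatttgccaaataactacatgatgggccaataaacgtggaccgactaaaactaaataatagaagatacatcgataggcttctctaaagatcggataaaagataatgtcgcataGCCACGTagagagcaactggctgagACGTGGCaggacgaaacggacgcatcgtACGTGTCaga
AT1G04560: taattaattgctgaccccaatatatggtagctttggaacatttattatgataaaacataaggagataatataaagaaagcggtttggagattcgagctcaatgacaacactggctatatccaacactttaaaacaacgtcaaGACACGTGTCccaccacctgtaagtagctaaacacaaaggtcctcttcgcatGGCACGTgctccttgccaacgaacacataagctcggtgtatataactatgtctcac

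Of 7 tested storage protein genes, a grouping made after the values were seen, 3 were called higher and 0 lower. SESA1 (1.27), SESA3 (1.49), CRA1 (0.61) and SESA4 (-0.18) were not called. CRU3 (AT4G28520), a cruciferin gene of the seed's protein store, measured 12, 20.2 and 8.92 TPM in h3.3kd at 21 °C and 134, 89.2 and 124 at 27 °C. CRU3 in elf7-3 was at 17.2, 24.3 and 27.5 TPM in the cool libraries and 21.1, 15.6 and 9.36 in the warm ones. The warm h3.3kd libraries stood above all others, a difference of 3.63 ± 0.40 (adjusted p = 6.55e-05). SESA5 (AT5G54740), a 2S albumin gene, measured 5.86, 14.2 and 4.43 TPM in h3.3kd at 21 °C and 40.3, 26.9 and 27 at 27 °C. SESA5 in elf7-3 was at 15.4, 32.6 and 28.5 TPM in the cool libraries and 11.1, 10.4 and 6.97 in the warm ones. It rose in h3.3kd and fell in elf7-3, a difference of 3.24 ± 0.47 (adjusted p = 0.000642). PAP85 (AT3G22640), a vicilin-like gene, rose in both lines, from 3.06 ± 1.3 to 36 ± 6.05 TPM in h3.3kd and from 3.14 ± 0.832 to 6.44 ± 1.66 in elf7-3, a difference of 2.39 ± 0.32 (adjusted p = 0.000347). So of 12 tested seed storage and embryo genes 3 were called higher, all for storage proteins (CRU3, SESA5 and SESA2), and 3 lower (OLEO2, PER1 and EM6), of which SESA2, PER1 and EM6 were named after their values were seen. Without h3.3kd at 21 °C replicate 2, 5 were called higher. The summed TPM of the list was 162 to 225 in cool h3.3kd, 328 to 405 in warm h3.3kd, 133 to 185 in cool elf7-3 and 217 to 265 in warm elf7-3, and its part in these results was not tested.

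**Figure D4:**
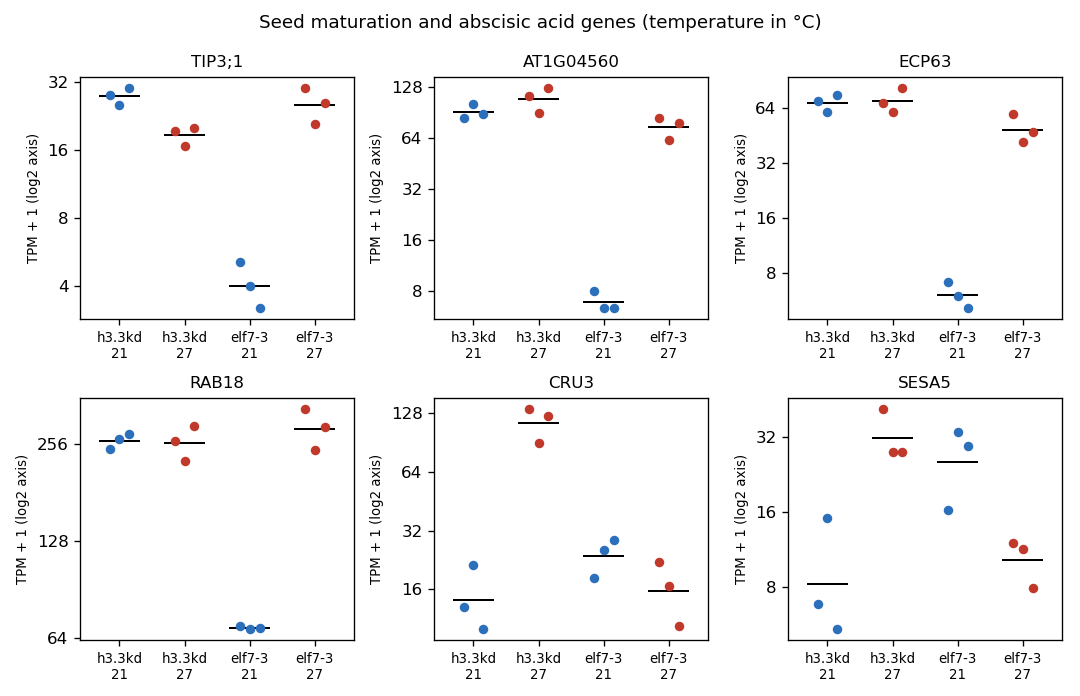
TPM + 1 on a log2 axis for 6 seed maturation and abscisic acid genes in the 12 libraries, drawn as points with the log-scale mean as a bar, blue for 21 °C and red for 27 °C. TIP3;1, AT1G04560, ECP63 and RAB18 are low in the 3 cool elf7-3 libraries alone, and CRU3 is high in the 3 warm h3.3kd libraries alone.

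Salicylic acid immunity genes fell with warmth in elf7-3. Of 12 tested, 8 fell in elf7-3 and 0 rose, against 2 that fell and 2 that rose in h3.3kd, and 6 were called higher in the difference and 0 lower by limma, with the same counts at an unadjusted p under 0.05. PR1 (AT2G14610), the marker gene of systemic resistance, was listed at 0 in all 6 h3.3kd libraries and had 3.165, 3.72 and 2.73 TPM in cool elf7-3 and 0.2004 to 0.2039 in warm elf7-3, with a fitted difference of 1.80 ± 0.24 (adjusted p = 0.000317). SARD1 (AT1G73805), a transcription factor gene for salicylic acid synthesis, measured 0.234, 0.335 and 0.0359 TPM in h3.3kd at 21 °C and 0.404, 0.274 and 0.204 at 27 °C. SARD1 in elf7-3 was at 2.03, 2.7 and 3.23 TPM in the cool libraries and 0.206, 0.619 and 0.446 in the warm ones. Its cool elf7-3 libraries stood above the other 9, a difference of 1.47 ± 0.28 (adjusted p = 0.00411). WRKY70 (AT3G56400), which acts downstream, had 0.545, 0.67 and 0.836 TPM in cool h3.3kd and 1.21, 0.73 and 0.476 in warm h3.3kd. In elf7-3 it had 5, 9.08 and 9.01 and then 1.44, 2.4 and 3.31, a difference of 1.45 ± 0.34 (adjusted p = 0.0173). ICS1 (1.16), the synthesis enzyme, and PAD4 (1.05) rose in h3.3kd and fell in elf7-3, and PR5 (0.96) fell in both, all named after their values were seen. The upstream genes EDS1 (-0.13) and NPR1 (-0.11) were not called. PR1, SARD1 and WRKY70 were near the floor in h3.3kd at both temperatures, where a fall could hardly be seen. Their differences therefore rest on the fall in elf7-3, and the 6 values of 0 for PR1 add no spread to its fit. With a filter at 5 TPM, 3 members of the list were called higher.

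Glucosinolates are defence compounds, of which the aliphatic kind is made from methionine. Of the 12 tested genes of the aliphatic branch, a grouping made after the values were seen, 4 were called lower and 0 higher. The other 8, MYB28, MAM3, CYP79F1, CYP79F2, UGT74C1, SOT17, SOT18 and BAT5, were not called, with differences from -1.39 to 0.21. MAM1 (AT5G23010), the enzyme gene of chain elongation, measured 18.3, 18.1 and 23.8 TPM in h3.3kd at 21 °C and 7.79, 17.63 and 9.95 at 27 °C. MAM1 in elf7-3 was at 3.84, 1.3 and 1.49 TPM in the cool libraries and 8.65, 18.6 and 14.2 in the warm ones. This gave a difference of -3.01 ± 0.44 (adjusted p = 0.000727). Its cool elf7-3 libraries were the lowest. CYP83A1 (AT4G13770), the cytochrome P450 gene of the core pathway, measured 7.73, 6.83 and 12.9 TPM in h3.3kd at 21 °C and 0.901, 3.93 and 2.55 at 27 °C. CYP83A1 in elf7-3 was at 5.62, 2.96 and 2.46 TPM in the cool libraries and 7.08, 20.4 and 14.3 in the warm ones. It fell in h3.3kd and rose in elf7-3, with a wide spread among replicates, a difference of -3.23 ± 0.54 (adjusted p = 0.00182). BCAT4 (AT3G19710), for the first step from methionine, had -1.89 ± 0.47 (adjusted p = 0.0228) and lost its call without h3.3kd at 21 °C replicate 3 (-1.72), elf7-3 at 27 °C replicate 2 (-1.57) or elf7-3 at 27 °C replicate 3 (-1.77), with adjusted p of 0.0508 to 0.0528. IMD1 (-1.66) was the fourth call on the lower side. The 3 called higher, all of the indole branch made from tryptophan, were CYP79B3 (0.71), CYP83B1 (0.37) and SOT16 (0.33). IMD1 and these 3 were named after their values were seen, out of 20 genes tested with a list median of -0.17. The other tested members outside the aliphatic branch, SUR1, CYP79B2, MYB34, MYB51 and MYB122, were not called. Of the 3 indole calls, 1 was left without h3.3kd at 27 °C replicate 2 or 3 or elf7-3 at 21 °C replicate 3, and 0 without elf7-3 at 27 °C replicate 1.

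Iron homeostasis genes had 5 members called lower and 0 higher by limma among 17 (7 and 3 at an unadjusted p under 0.05). BHLH100 (AT2G41240), a transcription factor gene induced by iron shortage, measured 1.23, 1.81 and 1.69 TPM in h3.3kd at 21 °C and 1.09, 1.35 and 0.77 at 27 °C. BHLH100 in elf7-3 was at 1.9, 1.39 and 1.47 TPM in the cool libraries and 6.74, 7.78 and 8.41 in the warm ones. Warm elf7-3 stood above the other 9 libraries, a difference of -2.06 ± 0.23 (adjusted p = 6.98e-05). BHLH101 (AT5G04150), its close relative, had -1.02 ± 0.18 (adjusted p = 0.00262). NAS4 (AT1G56430), a nicotianamine synthase gene of metal transport, fell in h3.3kd instead, from 24.7 ± 2.15 to 9.58 ± 1.5 TPM, a difference of -1.08 ± 0.20 (adjusted p = 0.00387). BTS (-0.55), an iron-sensing ubiquitin ligase gene, and OPT3 (-0.52), a phloem iron transporter gene, were also called and were named after their values were seen. The other tested members were not called: BHLH38, BHLH39, FIT, PYE, IRT1, FRO2, FRO3, NAS1, NAS2, FER1, FER3 and FER4. The largest positive difference of the list, 0.98, was among them.

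Clock genes rose in both lines, 12 of 15 tested in h3.3kd and 14 of 15 in elf7-3, and 3 were called lower in the difference and 0 higher by limma (8 and 1 at an unadjusted p under 0.05). GI (AT1G22770), an evening gene that also acts in flowering, measured 0.23, 0.353 and 0.318 TPM in h3.3kd at 21 °C and 0.81, 1.39 and 1.02 at 27 °C. GI in elf7-3 was at 1.17, 0.654 and 0.784 TPM in the cool libraries and 9.35, 9.98 and 7.24 in the warm ones. This gave a difference of -1.73 ± 0.25 (adjusted p = 0.00055). Warm elf7-3 was above the other 9 libraries. LUX (AT3G46640), a DNA-binding part of the evening complex that represses PIF4, measured 22, 21.2 and 19.6 TPM in h3.3kd at 21 °C and 58.7, 59 and 58.4 at 27 °C. LUX in elf7-3 was at 19.5, 18.4 and 18.6 TPM in the cool libraries and 90.8, 80.3 and 77.6 in the warm ones. It rose in both lines without overlap and further in elf7-3, a difference of -0.63 ± 0.096 (adjusted p = 0.000954). PRR7 (AT5G02810), a daytime repressor gene, had 1.09 ± 0.0903 and 1.47 ± 0.165 TPM in h3.3kd and 3.44 ± 0.0828 and 8.75 ± 1.03 in elf7-3, a difference of -0.89 ± 0.18 (adjusted p = 0.0079). The morning genes CCA1 and LHY stayed under 1 TPM in every library and were not tested.

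The evening element core, the letters AATATCT on either strand, was in 9 of 15 clock promoters (60.0%) and in 11.6% of all promoters read, in 14.2% of those called higher and 12.5% of those called lower. Of the 3 clock genes called, LUX and PRR7 had 2 matches each, and GI, with the largest difference, had 0. ELF4 with 4 matches and FKF1 with 3 were not called. The 250 bases before the start of LUX (chr3:17182792-17183041, plus strand, TAIR10.1) are shown, with 2 matches in capitals. LUX was picked as a clock gene with matches that rose in both lines to different extents.
LUX: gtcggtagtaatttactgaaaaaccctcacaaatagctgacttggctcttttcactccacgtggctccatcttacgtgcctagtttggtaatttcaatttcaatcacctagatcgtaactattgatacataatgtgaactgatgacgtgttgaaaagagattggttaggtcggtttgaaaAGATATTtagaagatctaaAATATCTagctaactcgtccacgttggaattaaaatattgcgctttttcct

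Of 12 flowering genes tested, 1 was called higher and 2 lower. SPL3 (AT2G33810), a promoter of the vegetative to floral transition, measured 12.6, 13.9 and 11.6 TPM in h3.3kd at 21 °C and 8.17, 7.66 and 9.34 at 27 °C. SPL3 in elf7-3 was at 11.3, 12.3 and 10.4 TPM in the cool libraries and 28.8, 18 and 20.7 in the warm ones. It fell in h3.3kd and rose in elf7-3, a difference of -1.46 ± 0.20 (adjusted p = 0.000427). SVP (AT2G22540), a floral repressor gene of the temperature pathway, rose in both lines (-0.38 ± 0.10 (adjusted p = 0.0321)), and MAF2 (AT5G65050), a relative of the repressor FLC, fell in elf7-3 and was not called in h3.3kd (0.43 ± 0.11 (adjusted p = 0.0247)). The SVP call was lost without any 1 of 8 libraries, all but h3.3kd at 21 °C replicate 3, h3.3kd at 27 °C replicate 3, elf7-3 at 21 °C replicate 1 and elf7-3 at 27 °C replicate 2 (adjusted p up to 0.079), and that of MAF2 without h3.3kd at 21 °C replicate 1 (0.37) or elf7-3 at 21 °C replicate 2 (0.41). FLC itself had 0.59 ± 0.31 and was not called (adjusted p = 0.258). The floral organ genes SEP3 and PI, background markers of flowers in a seedling, rose in elf7-3. SEP3 (AT1G24260) measured 0.403, 1.16 and 0.371 TPM in h3.3kd at 21 °C and 0.796, 0.54 and 0.844 at 27 °C. SEP3 in elf7-3 was at 0.844, 0.839 and 0.805 TPM in the cool libraries and 6.25, 4.83 and 4.54 in the warm ones. This gave a difference of -1.65 ± 0.27 (adjusted p = 0.00179). PI (AT5G20240) had means of 1.69 ± 0.461 and 7.03 ± 1.88 TPM in elf7-3 and under 1 TPM in each h3.3kd library, a difference of -1.44 ± 0.28 (adjusted p = 0.005) that was not called at a pseudocount of 0.1 (adjusted p = 0.136). The summed TPM of the 7 floral genes was 2.37 to 3.41 in cool elf7-3 and 10.5 to 15.6 in warm elf7-3, against 0.699 to 1.38 in h3.3kd, and AP1, AP3, AG, SEP1 and SEP2 stayed under 1 TPM.

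Core histone genes fell with warmth in both lines, 19 of 28 in h3.3kd and 24 of 28 in elf7-3, and 6 were called higher in the difference and 1 lower. AT3G53730, a gene for histone H4, measured 467, 469.5 and 417 TPM in h3.3kd at 21 °C and 512, 471 and 496 at 27 °C. AT3G53730 in elf7-3 was at 100.1, 89.2 and 100.5 TPM in the cool libraries and 44.7, 42.4 and 46 in the warm ones. It was not called in h3.3kd, where the highest cool library (469.5 TPM) lay just under the lowest warm one (471), and it fell without overlap in elf7-3, where it was also lower at 21 °C, a difference of 1.23 ± 0.089 (adjusted p = 1.44e-06). AT3G45930, also for H4, had 178 ± 13.5 and 185 ± 6.7 TPM in h3.3kd and 62.9 ± 3.65 and 30.2 ± 0.915 in elf7-3, a difference of 1.09 ± 0.089 (adjusted p = 4.24e-06). The H4 genes AT5G59690 (0.51), AT1G07820 (0.45) and AT5G59970 (0.41) and the H2A gene HTA3 (0.27), named after their values were seen, were called on the same side. H4 genes encode the same protein and may share reads. HTA13 (AT3G20670), another H2A gene, fell by more in h3.3kd, a difference of -0.61 ± 0.10 (adjusted p = 0.00169). The summed TPM of the 28 genes was 5913 to 6255 in cool h3.3kd and 4970 to 5009 in warm h3.3kd, and 3350 to 3606 and 2421 to 2502 in elf7-3.

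**Figure D5:**
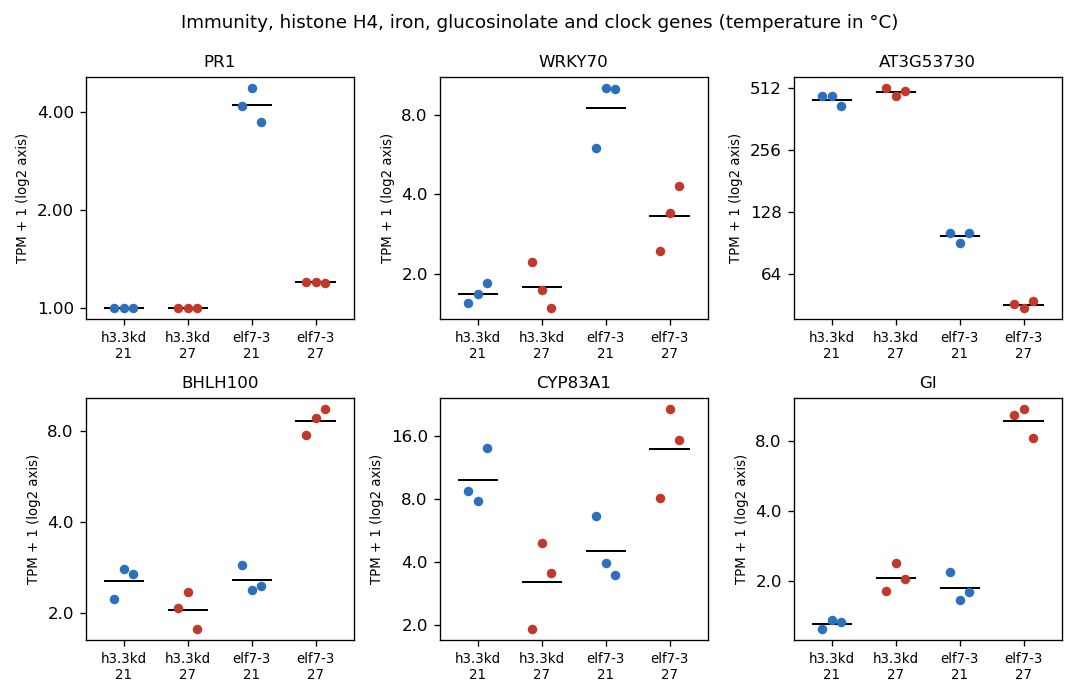
TPM + 1 on a log2 axis for 6 genes in the 12 libraries, drawn as points with the log-scale mean as a bar, blue for 21 °C and red for 27 °C. PR1 and WRKY70 are high in cool elf7-3, AT3G53730 is lower in elf7-3 and falls there, and BHLH100, CYP83A1 and GI are higher in warm than in cool elf7-3.

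The machinery around the mutated genes had no member called. Of 15 genes that deposit or remove H3.3 and H2A.Z, 0 were called by limma (0 higher and 3 lower at an unadjusted p under 0.05), with differences from -0.37 to 0.40, and 0 of 6 Paf1 complex genes (0 and 2), from -0.29 to 0.032. In the first list 1 member was called lower without h3.3kd at 21 °C replicate 1, and 1 of the second without h3.3kd at 21 °C replicate 3 or elf7-3 at 21 °C replicate 2. HIRA (0.18 ± 0.15), a chaperone gene for H3.3, and ARP6 (-0.30 ± 0.095), a subunit gene of the complex that inserts H2A.Z, are examples, with adjusted p of 0.508 and 0.0581. Endoplasmic reticulum chaperone genes also had 0 of 13 called by limma (2 higher and 1 lower at an unadjusted p under 0.05), and 1 was called higher without h3.3kd at 27 °C replicate 1, elf7-3 at 21 °C replicate 2 or elf7-3 at 27 °C replicate 2.

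Among jasmonate genes 2 of 14 were called higher and 0 lower by limma (4 and 1 at an unadjusted p under 0.05). OPR3 (AT2G06050), a peroxisomal enzyme gene of jasmonate synthesis, rose from 13.5 ± 0.888 to 23.7 ± 0.761 TPM in h3.3kd against 8.9 ± 0.678 and 10 ± 1.49 in elf7-3, a difference of 0.62 ± 0.14 (adjusted p = 0.0152). AOC1 (AT3G25760), of the step before, had 1.14 ± 0.31 (adjusted p = 0.0315) and lost its call without h3.3kd at 21 °C replicate 2, h3.3kd at 27 °C replicate 1, elf7-3 at 21 °C replicate 3 or elf7-3 at 27 °C replicate 2 (0.92 to 1.04). CHS (AT5G13930), the entry enzyme gene of flavonoid synthesis, measured 173, 170.2 and 175 TPM in h3.3kd at 21 °C and 118, 155 and 172 at 27 °C. CHS in elf7-3 was at 43.4, 35.2 and 39.4 TPM in the cool libraries and 62.9, 84.8 and 87 in the warm ones. It rose in elf7-3 and overlapped in h3.3kd, a difference of -1.20 ± 0.19 (adjusted p = 0.00116), and was the 1 call among 10 flavonoid genes. MCM7 (AT4G02060), a replication helicase gene, fell in both lines and by more in h3.3kd (-0.56 ± 0.14 (adjusted p = 0.0208)), the 1 call among 19 cell cycle genes, and it was not called without elf7-3 at 21 °C replicate 3 (-0.52).

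Root markers were counted as a sign of organ share. Of 12 tested, 2 were called higher and 1 lower, and their summed TPM was 162 to 182 in cool h3.3kd, 178 to 210 in warm h3.3kd, 227 to 260.4 in cool elf7-3 and 239 to 262 in warm elf7-3. MYB36 (AT5G57620), a regulator gene of the endodermal barrier, rose from 4.42 ± 0.934 to 9.74 ± 1.27 TPM in h3.3kd (0.80 ± 0.18 (adjusted p = 0.015)), and CASP1 (AT2G36100), a gene of that barrier, had 0.64 ± 0.13 (adjusted p = 0.00747). EXPA7 (AT1G12560), a root hair expansin gene, had -0.86 ± 0.25 (adjusted p = 0.0455), and its call held only without h3.3kd at 21 °C replicate 1, h3.3kd at 27 °C replicate 2 or elf7-3 at 27 °C replicate 1 among the left-out libraries. The part of organ shares in the results above was not tested.

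Among genes averaging 5 TPM or more, several of the largest positive differences outside the lists were in genes that were high in cool elf7-3. AT5G42530, for an uncharacterized protein, measured 0.899, 1.1 and 0.828 TPM in h3.3kd at 21 °C and 3, 4.97 and 4.71 at 27 °C. AT5G42530 in elf7-3 was at 26.7, 38.3 and 36 TPM in the cool libraries and 1.9, 2.14 and 1.4 in the warm ones. It rose in h3.3kd and fell in elf7-3, the largest difference of the named genes, 5.02 ± 0.25 (adjusted p = 1.65e-07). AT2G25510, also uncharacterized, measured 0.183, 0.451 and 1.01 TPM in h3.3kd at 21 °C and 0.272, 1.48 and 0.769 at 27 °C. AT2G25510 in elf7-3 was at 45.6, 75.3 and 70.8 TPM in the cool libraries and 1.75, 3.5 and 2.1 in the warm ones. This gave a difference of 4.46 ± 0.39 (adjusted p = 7.02e-06). In both genes only the cool elf7-3 libraries were above 5 TPM. ECS1 (AT1G31580) measured 20.6, 11.2 and 32.1 TPM in h3.3kd at 21 °C and 34, 45.9 and 48 at 27 °C. ECS1 in elf7-3 was at 67.3, 93.7 and 85.1 TPM in the cool libraries and 6.85, 13 and 14.2 in the warm ones. It rose in h3.3kd and fell in elf7-3, a difference of 3.86 ± 0.42 (adjusted p = 6.33e-05). CML41 (AT3G50770), a calmodulin-like gene, and AT5G18840, for a transporter of the major facilitator family, fell in elf7-3 and were not called in h3.3kd, with 3.19 ± 0.69 (adjusted p = 0.0107) and 2.84 ± 0.34 (adjusted p = 0.000132). CML41 was not called at a pseudocount of 0.1 (adjusted p = 0.0524). AT5G44440, for a berberine bridge enzyme-like oxidase, had 19.3, 29.9 and 21.3 TPM in warm h3.3kd and at most 4.58 in any other library, a difference of 2.88 ± 0.57 (adjusted p = 0.00571), and it was not called at that pseudocount either (adjusted p = 0.0518).

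AT2G07629, for an uncharacterized protein, lies in the stretch of chromosome 2 that holds a copy of the mitochondrial genome. It measured 0.551, 0.339 and 0.508 TPM in h3.3kd at 21 °C and 24.9, 13.3 and 11 at 27 °C. AT2G07629 in elf7-3 was at 0.267, 0.314 and 1.5 TPM in the cool libraries and 3.79, 1.46 and 2.3 in the warm ones, a difference of 2.42 ± 0.45 (adjusted p = 0.00367). It was highest in the library with the high organelle share, and without that library the difference was 2.09 ± 0.41 (adjusted p = 0.00703). The range from AT2G07600 to AT2G07900 was set by locus name, and it also holds MCM5 (AT2G07690) of the cell cycle list. Of 24 tested genes in this range, 4 were called higher and 0 lower by limma, 20 rose in h3.3kd and 16 in elf7-3. Without that library 2 were called higher, 0 lower, and 18 rose in h3.3kd. Their summed TPM was 201, 109 and 119 in warm h3.3kd, 29.2 to 44.6 in cool h3.3kd, 68.2 to 82.1 in warm elf7-3 and 29.2 to 46.1 in cool elf7-3, so the rise was present in all 3 warm h3.3kd libraries. Mitochondrial genes made up 0.241%, 0.0659% and 0.0804% of TPM in warm h3.3kd and 0.0121% to 0.0145% in cool h3.3kd. In elf7-3 they made up 0.0275% to 0.037% in the warm libraries and 0.0102% to 0.0146% in the cool ones. Their share was thus higher in the warmth in both lines, and its part in the rise of this stretch was not tested. Reads from mitochondrial transcripts and from this copy cannot be told apart in these values.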

How the data were processed

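Strandedness, gene lengths and the way TPM were computed are not given in the sources used here. Total RNA was used with a NEBNext Ultra kit, per the labels' protocols. Per the submitters' processing notes, the tools were DESeq2 1.26.0, HTSeq 0.11.2, fastp 0.20.1 and HISAT2, with roles not given, and the build was TAIR10. The deposited values are TPM of 27655 genes, made by the authors, and every library sums to a fixed total, so depth is unknown and no counting interval was computed.

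For this comparison, 19649 nuclear genes that reached 1 TPM in 3 or more of 12 libraries entered a limma 3.58.1 fit (R 4.3.3) of log2(TPM + 1), with 4 group means, a mean-dependent prior and 8 residual degrees of freedom. Tests were two-sided, Benjamini-Hochberg adjusted over all genes and called at 0.05. The fit was run on simulated log2 values with known differences and independent normal noise, as a check of the code. Such noise does not copy values of 0 or libraries that are not independent. The pseudocount shrinks changes of low genes. Named genes were the 4 targeted genes, the 12 largest differences each way among called genes averaging 5 TPM or more, and up to 3 called members with the largest differences of each of 27 lists; any other gene is marked as named after its value was seen or given as a member not called. The members and lists were chosen with earlier results of these data known. Names, products, coordinates and promoters are from RefSeq's TAIR10.1, in which 27445 loci were found. Python 3.11.15, pandas 2.3.3, numpy 2.4.6 and matplotlib 3.10.9 made tables and plots.

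The alternatives were a pseudocount of 0.1, a filter at 5 TPM or none, scaling by median of ratios, removal of organelle genes, library weights, a replicate block, a 2-fold change, 1 prior for all genes and leaving out each library. Leaving out the genes from AT2G07600 to AT2G07900, a range of locus names around the chromosome 2 mitochondrial insertion, was added after seeing the data.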

Additional observations from a re-analysis of the deposited data

Results flagged for a closer look

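The named genes other than ELF7 met 1 criterion for a closer look: their warmth response differed between the lines by limma's test of that difference. Values are the response of h3.3kd minus that of elf7-3 on the log2(TPM + 1) scale, sorted by how each line moved. Genes that rose in h3.3kd and were not called in elf7-3 were CRU3 (3.63), SAUR22 (2.95), AT5G44440 (2.88), SAUR23 (2.34), ATHB2 (0.94), YUC3 (1.74), YUC8 (1.51), HSP17.6A (3.88), HSP17.6C (2.33), HSP17.6II (2.19), LHCB4.3 (2.24), AOC1 (1.14), OPR3 (0.62), CYP707A3 (1.09) and MYB36 (0.80). Those that rose in both lines and more in h3.3kd were AT2G07629 (2.42), PAP85 (2.39), HAT2 (1.22), GH3.3 (2.04) and BAS1 (0.70). Those that rose in h3.3kd and fell in elf7-3 were AT5G42530 (5.02), ECS1 (3.86), SESA5 (3.24), HTR4 (0.59) and CASP1 (0.64). Those that fell in elf7-3 and were not called in h3.3kd were AT2G25510 (4.46), CML41 (3.19), AT5G18840 (2.84), HTR5 (0.26), HTR8 (0.57), AT3G53730 (1.23), AT3G45930 (1.09), MAF2 (0.43), PR1 (1.80), SARD1 (1.47) and WRKY70 (1.45). Fallen in both lines and further in elf7-3 was LHCB1.1 (1.55). With the opposite sign, genes that fell in h3.3kd and were not called in elf7-3 were AT4G22490 (-4.00), ARR4 (-0.93), DWF4 (-0.58), RD29A (-1.41), COR413-PM1 (-1.02), NAS4 (-1.08) and EXPA7 (-0.86). Those that fell in both lines and further in h3.3kd were AT3G05727 (-3.68), MIOX2 (-3.32), AT2G05510 (-2.95), HTA13 (-0.61), TAA1 (-0.92), ARR6 (-0.87), ARR7 (-0.86), XTH4 (-0.50), COR15A (-2.10) and MCM7 (-0.56). Falling in h3.3kd and rising in elf7-3 were CYP83A1 (-3.23), TIP3;1 (-3.22), AT2G28490 (-3.14), AT1G47980 (-3.11), SPL3 (-1.46) and LHCB1.4 (-1.83). The genes that rose in elf7-3 and were not called in h3.3kd were AT1G04560 (-3.19), MAM1 (-3.01), ECP63 (-2.98), M17 (-2.90), PRR7 (-0.89), RAB18 (-2.08), RD29B (-1.88), CHS (-1.20), BCAT4 (-1.89), ASN1 (-1.35), DIN10 (-0.84), BHLH100 (-2.06), BHLH101 (-1.02), OLEO2 (-2.20), SEP3 (-1.65) and PI (-1.44). Rising in both lines and further in elf7-3 were PIF5 (-0.995), CPD (-0.39), XTH24 (-1.04), GI (-1.73), LUX (-0.63) and SVP (-0.38).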

How the results depend on the processing

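The count of 1896 genes lay between 1419 (1 prior for all genes) and 2418 (library weights) in the alternatives other than the 2-fold one and the left-out libraries. It was 1811 at a pseudocount of 0.1, 1743 with no filter and 1891 without the genes from AT2G07600 to AT2G07900. With a 2-fold change also required, 466 genes were called, 223 higher and 243 lower, and 989 for warmth in h3.3kd and 833 in elf7-3. Leaving out each library gave 1284 to 1665 genes, 517 to 801 higher and 767 to 1049 lower, 7323 to 8627 for warmth in h3.3kd and 7923 to 9367 in elf7-3. The lowest counts for the difference and for warmth in h3.3kd followed from leaving out h3.3kd at 21 °C replicate 1. The lowest for warmth in elf7-3 followed from leaving out elf7-3 at 21 °C replicate 3. Any left-out library leaves fewer in its group, and why these gave the lowest counts was not tested. Median-of-ratios scaling called 994 higher and 947 lower, a share of 51.2% higher against 41.5% in the values as reported, and moved the median of all genes from -0.03 to 0.0089. Libraries with the same replicate number had correlations of deviations of -0.111 to 0.155 over 18 pairs, against -0.122 to 0.123 over 36 others, and the number was not taken as a pairing. Between the 2 groups at 27 °C, same-numbered pairs were positive (0.075 to 0.155) and the other 6 negative (-0.122 to -0.022), a hint from the data, while in 2 of the other pairs of groups all same-numbered ones were negative. A fit with the replicate number as a block called 1734, 740 higher and 994 lower; under it HTR5, SVP, ASN1 and DIN10 were not called (adjusted p of 0.0501 to 0.0689), and those called lower were 5 sugar starvation genes, 0 heat shock genes, 1 flowering gene and 1 gene of H3.3 and H2A.Z deposition. Of the single-gene results over 22 settings, 0 reversed, 1685 kept their side of the threshold and 133 lost it. The named genes other than ELF7 were picked by their calls in these same data, so a reversal was unlikely from the start. Genes that a setting removed are not counted, and 76 of 83 remained with the filter at 5 TPM. Depth is unknown in TPM, and genes near 1 TPM, such as PR1 or the HSP17.6 genes at 21 °C, rest on few reads.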
